A study of Canis lupus familiaris with 25 samples.

Results

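The 150 genes whose expression was highest in lymphomas labelled B-cell relative to those labelled T-cell were examined, out of 32704 genes measured with RNA-Seq in 25 dogs, whose enlarged lymph nodes were sampled by fine needle aspirate. Members were chosen from the deposited counts. Each count was divided by the total of its sample and multiplied by 1000000 to give its CPM, and the genes were ranked by the median of log2(CPM + 1) over the B-cell dogs minus the median over the T-cell dogs. The labels name 17 dogs as B-cell (5 with short and 12 with long survival), 3 as T-cell (1 short, 2 long) and 5 as unknown immunophenotype (2 short, 3 long). All were pet dogs with naturally occurring lymphoma, sampled once before CHOP, a combination of cyclophosphamide, doxorubicin, vincristine and prednisone, although a single earlier injection of prednisone was allowed. There were no healthy control samples and no replicate samples of a dog. The study's text counts fewer dogs as B-cell than the labels do, and the labels are used here.

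Lymphoma is a cancer of lymphocytes and is classed by the cell it arose from. B lymphocytes mature to make antibody and display an immunoglobulin receptor, whereas T lymphocytes display a T-cell receptor, and each lineage keeps its own set of genes active. B-cell forms are the more common in dogs. Genes high in B-cell over T-cell lymphoma can therefore include those of the B lineage, but also genes of any other cell that an aspirate picked up. In bulk samples of this kind, fewer cells of a type and less RNA per cell cannot be told apart. The tables list genes by Ensembl identifier, and 0 of the 32704 identifiers matched a symbol in the reference table used here, so the functions of the members are not given and the labelled immunophenotype was not checked against named lineage markers.

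Totals ran from 9592039 counts (dog 029A) to 28979456 (dog 016), and all 150 members had counts in every B-cell and T-cell dog. The sample names carry a sheet number, which is at most 12 in 11 B-cell dogs (the consecutive series) and an odd number from 13 to 39 in the other 14 dogs (the odd series). What the number stands for is not in the labels. The paper reports clusters of samples that matched the technician who isolated them, proposes some batch effects and names these as a limitation. The labels do not name the technicians, so those clusters cannot be matched to the series here. The odd series holds the other 6 B-cell dogs and all the T-cell and unknown dogs, so in the contrast that chose the members immunophenotype and series overlap. Across the members, the counts and the separately calculated FPKM values, each relative to the gene's mean over the dogs, had a Pearson's r of 0.559 in dog 037A and 0.816 in dog 024A. It was 0.795 in T-cell dog 028A and 0.878 in T-cell dog 036A and at least 0.92 in each of the remaining dogs, and genes are not independent replicates.

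One library stood apart from its label before any other result. Dog 038A is labelled T-cell, but of the 150 members chosen again without it, 140 lay nearer in this dog to the B-cell median than to the median of the other T-cell dogs. When dogs 028A and 036A, the others labelled T-cell, were each left out of the rule, only 11 and 15 genes lay nearer to the B-cell median. The T-cell median then included dog 038A. With dog 038A left out as well, which leaves a single T-cell dog, the numbers were 21 and 17. The median of 3 dogs is the middle dog, and dog 038A was the highest of the 3 for 145 members, so the T-cell median was nearly always that of dog 028A or 036A. The rule without dog 038A shared 133 of the 150 members. With dog 038A as the only T-cell dog it shared 20.

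The opposite set was read for the same dog. Of the 150 genes that were highest in dogs 028A and 036A over the B-cell dogs, 10 lay nearer to the T-cell level in the library labelled T-cell from dog 038A. In the 17 B-cell dogs, each measured against genes chosen without it, this number had a median of 4 and ran from 0 to 67, the highest being dog 029A and the next 17. The 5 unknown dogs had 6 to 13. For this set no T-cell dog was left out in turn, because dogs 028A and 036A alone chose it. How many of its genes would lie near the T-cell level in a further T-cell dog is therefore not known. By both counts dog 038A lay within the range of the dogs not labelled T-cell, but only the first set has T-cell dogs to compare with. The cause was not tested.

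**Figure D1:**
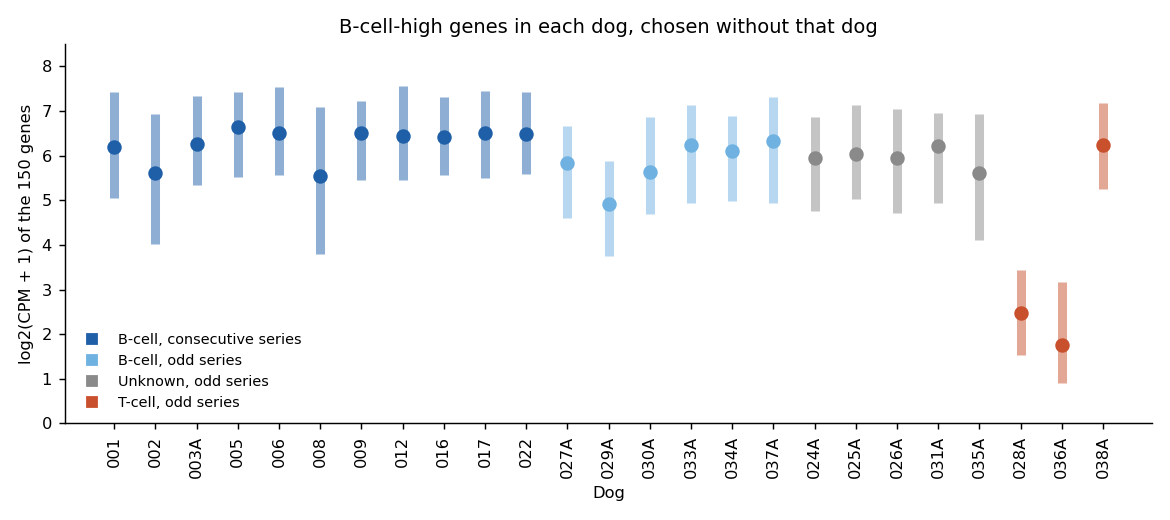
Level of the B-cell-high genes in each of the 25 dogs, as log2(CPM + 1), with the point at the median and the bar from the lower to the upper quartile over 150 genes chosen without the dog shown (the same genes for all unknown dogs, which the rule does not use). Dogs 028A and 036A lie at medians of 2.47 and 1.77, whereas dog 038A, also labelled T-cell, lies at 6.23 among the B-cell and unknown dogs.

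The values that chose the members are given as a description. The difference between the B-cell and T-cell medians ran from 3.0995 to 6.25 on the log2 scale, with a median of 3.74. At the limit, the last members, ENSCAFG00000017294 and ENSCAFG00000014956, had differences of 3.0998 and 3.0995, and the first genes left out had 3.0991 and 3.0969, so the limit does not mark a gap. In the B-cell dogs the members' median FPKM, which allows for gene length, ran from 3.77 to 467 with a median of 21.6, against a median of 1.47 over the 22457 genes kept by a filter on low counts. The members' median FPKM in the T-cell dogs had a median of 1.10. The members together took a small part of each library. With members chosen without the dog measured, this was 0.803% to 2.46% of counts in the B-cell dogs, 1.51% to 1.92% in the unknown dogs, 0.225% in dog 028A, 0.144% in dog 036A and 2.02% in dog 038A.

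ENSCAFG00000010172 had the largest difference, 6.25 on the log2 scale. Its lowest, median and highest values in the 17 B-cell dogs were 6.56, 328 and 1054 CPM. The T-cell dogs 028A, 036A and 038A had 3.34, 1.2 and 460 CPM. The groups overlapped through dog 038A, which exceeded the B-cell median, whereas dogs 028A and 036A lay under every B-cell dog. B-cell dogs 002 and 008, with 6.56 and 7.64 CPM, were the next above them, and every other B-cell dog had at least 51.3 CPM. ENSCAFG00000002171 followed with a difference of 5.17. It ran from 99.98 through a median of 376 to 819 CPM in the B-cell dogs, and the T-cell dogs had 9.51, 8.24 and 209 CPM. Here dogs 028A and 036A lay far under the lowest B-cell dog, 029A, and dog 038A lay inside the B-cell range. Over all members, every T-cell dog lay under every B-cell dog for 1 gene of 150 (0.315% of all 32704 genes did so). Without dog 038A this count was 117 of 150 (4.68% of all genes). Since the rule used these dogs, nothing is read from either count.

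Members varied more among B-cell dogs than most genes within the same range of level. The SD of log2(CPM + 1) over the 17 dogs had a median of 0.86 over the members, with quartiles of 0.61 and 1.29 and a range of 0.28 to 2.60. Over the other 8306 genes whose B-cell median lay between the lowest and the highest member, the median SD was 0.39. An SD of 1 or more was seen in 67 members, 44.7% of them, and in 5.69% of the other genes. The SD was above the upper quartile of the other genes in 121 members and under their lower quartile in 1. Within the consecutive series the median SD was 0.71 for the members and 0.34 for the other genes, and within the odd series 0.77 and 0.38, so the wider spread was present in both series. Without dogs 029A and 037A the members' median SD was 0.73. The other genes were not matched to the members in level within that range. Choosing genes by a large difference between dogs may also favour variable genes. These are descriptions of genes that share the same 17 libraries, and no test was made.

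**Figure D2:**
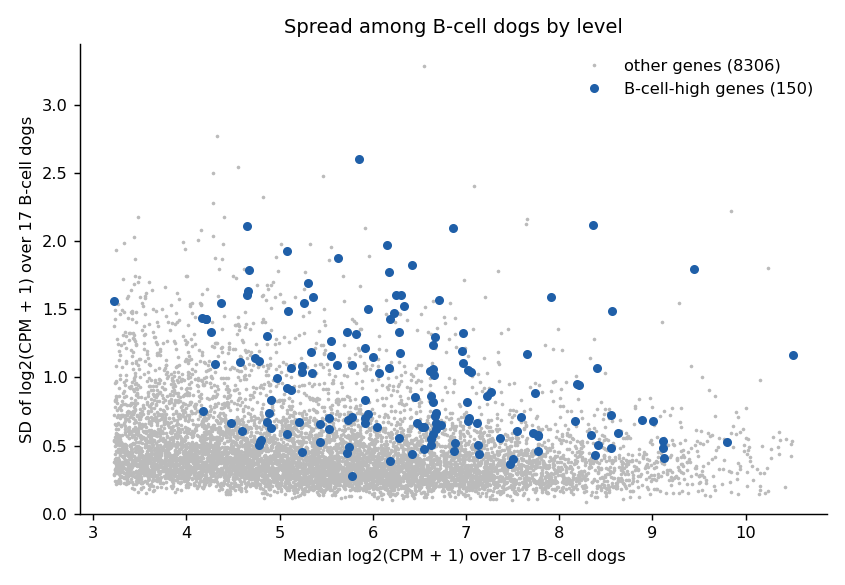
SD of log2(CPM + 1) over the 17 B-cell dogs against the median level in the same dogs, with 1 point per gene for the 150 B-cell-high genes (blue) and the other 8306 genes of that range of level (grey). Most blue points lie in the upper part of the cloud, with a median SD of 0.86 against 0.39.

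The most variable member was ENSCAFG00000032227, with an SD of 2.60. Its lowest, median and highest values in the B-cell dogs were 1.07, 56.7 and 615 CPM. Dogs 001, 008, 027A and 029A had 1.32, 1.07, 1.69 and 4.90 CPM, near the 2.14 and 3.44 CPM of T-cell dogs 028A and 036A, and the highest value was that of dog 002. The low dogs come from both series. ENSCAFG00000010172, the member with the largest difference, was second with an SD of 2.12, and there the low dogs were 002 and 008. Dog 002 was thus the lowest of the B-cell dogs for one of these genes and the highest for the other. At the other end, ENSCAFG00000017294 had an SD of 0.28 and ran from 34.1 through 54.0 to 74.8 CPM in the B-cell dogs. The next steadiest, ENSCAFG00000008880, had an SD of 0.37 and ran from 123 through 176 to 267 CPM. Each of the B-cell dogs lay far above dogs 028A and 036A for both steady genes, which had 5.42 and 2.16 CPM of the first and 12.7 and 2.72 CPM of the second.

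**Figure D3:**
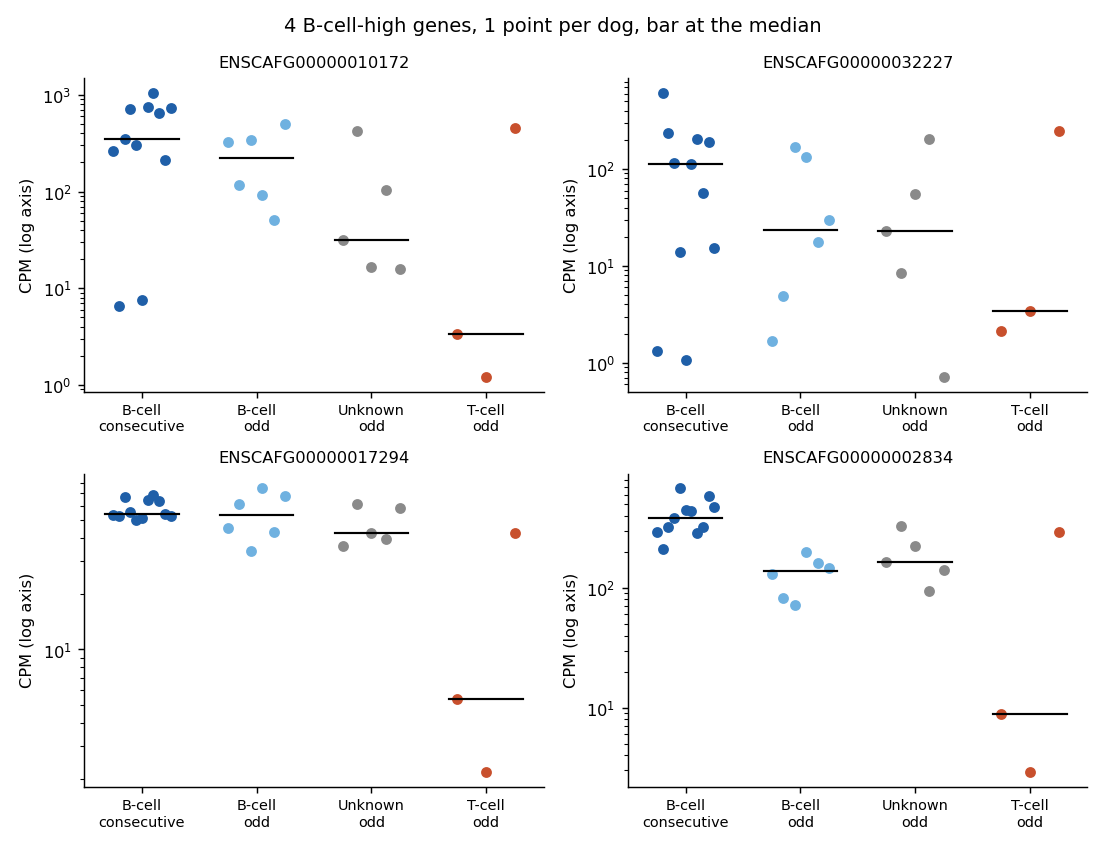
CPM on a log axis of 4 B-cell-high genes, 1 point per dog and a bar at the group median, for B-cell dogs of the consecutive (11) and odd (6) series, unknown (5) and T-cell (3) dogs. ENSCAFG00000010172 and ENSCAFG00000032227 fall towards the level of T-cell dogs 028A and 036A in some B-cell and unknown dogs, ENSCAFG00000017294 stays between 34.1 and 74.8 CPM in every B-cell dog, and for ENSCAFG00000002834 each dog of the consecutive series lies above each B-cell dog of the odd series.

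Members at a low level were concentrated in a few B-cell dogs. With the rule applied to all dogs, 72 members lay nearer to the B-cell than to the T-cell median in all 17 B-cell dogs and 130 in at least 15 of them. The number nearer to the T-cell median was 40 in dog 008, 36 in dog 029A, 31 in dog 002 and 13 in dog 030A, and 0 to 9 in each of the other 13. These lists were shared to different degrees. Dogs 002 and 008 had 15 such members in common, 48.4% of the list of dog 002 and 37.5% of that of dog 008. Dogs 008 and 029A had 12 in common, 30.0% and 33.3%. Of the 13 in dog 030A, 10 were also in the list of dog 029A, which is 76.9% of the first list and 27.8% of the second. The lists of dogs 002, 008 and 029A held 31, 40 and 36 of the 150 members. Lists of such length can share members by length alone. The overlap from length alone was not calculated, so these shares are given as a description. Across the 17 B-cell dogs the Pearson's r between pairs of members had a median of 0.28, against 0.04 between all pairs of genes in the members' range of level. Within the consecutive series alone the medians were 0.16 and 0.03. All pairs share the same libraries and their scaling.

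The 5 dogs of unknown immunophenotype took no part in the choice, so their values can be read against it. In all 5, most members lay nearer to the B-cell than to the T-cell median. The number was 132 in dog 024A, 147 in dog 025A, 140 in dog 026A, 144 in dog 031A and 117 in dog 035A, of 150. For the B-cell dogs, each with the rule recomputed without it, the lowest, median and highest numbers were 107, 145 and 149, so all 5 unknown dogs lay inside the B-cell range and apart from dogs 028A and 036A. Over all 22457 genes kept by the filter on low counts, 56.1% to 68.2% lay nearer to the B-cell median in the unknown dogs. With the rule taken without dog 038A, the numbers for the unknown dogs ran from 118 to 146. From FPKM values they ran from 120 to 140.

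**Figure D4:**
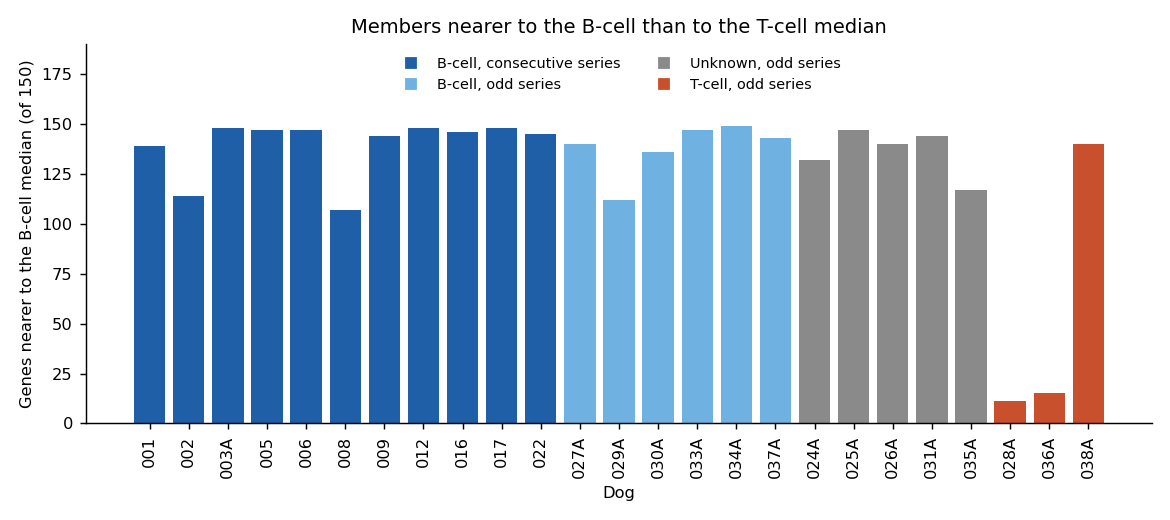
Number of the 150 B-cell-high genes that lie nearer to the B-cell than to the T-cell median in each dog, with genes and medians taken without the dog shown (no change for the unknown dogs). The unknown dogs have 117 to 147 and the B-cell dogs 107 to 149, while dogs 028A and 036A have 11 and 15 and dog 038A has 140.

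By gene, 102 members lay nearer to the B-cell median in all 5 unknown dogs, 130 in at least 4, and 0 lay nearer to the T-cell median in all 5. The median of the unknown dogs, as a percentage of the way from the T-cell to the B-cell median, was 91.7% for the middle member, with quartiles of 83.5% and 100.1%. For 96 members all 5 dogs lay within the range of the 17 B-cell dogs. The unknown dogs also differed among themselves. The members' SD over these 5 dogs had a median of 0.75, against 0.34 for the other genes in the members' range of level. ENSCAFG00000010172 had 31.3 CPM in dog 024A, 423 in dog 025A, 16.6 in dog 026A, 104 in dog 031A and 16.0 in dog 035A. Dog 025A lay above the B-cell median of 328 CPM, whereas dogs 024A, 026A and 035A were between the low B-cell dogs 002 and 008 and the rest. ENSCAFG00000032227 had 22.9, 8.5, 54.8, 205 and 0.708 CPM in the same order of dogs. Its level in dog 035A was under that of all B-cell and T-cell dogs. ENSCAFG00000017294, the steadiest member, had 36.2, 61.0, 42.8, 39.8 and 58.5 CPM, all within the B-cell range. Of the 33 members nearer to the T-cell median in dog 035A, 20 were among the 40 of B-cell dog 008, which is 60.6% of the first list and 50% of the second. The overlap that lists of this length would have by length alone was not calculated here either.

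Because every unknown dog belongs to the odd series, they were tested against the 6 B-cell dogs of that series with edgeR's quasi-likelihood test on counts and Benjamini-Hochberg adjustment over all 19040 genes tested. Of the 150 members 0 passed an adjusted p-value of 0.05, and of all genes 0 did (0%). The smallest adjusted p-value of a member was 0.381. DESeq2 called 0 members and 14 genes (0.0435%). At an unadjusted edgeR p-value under 0.05 there were 4 members, 2.67%, against 12.5% of all genes tested. With DESeq2 there were 12 members and 2788 of 32191 genes at that threshold. The log2 fold change, unknown minus B-cell, had a median of 0.23 over the members with quartiles of -0.06 and 0.47, and a median of -0.10 over all genes. The members' median depended on the dogs compared, on the method and on the unit. It was 0.08 without dog 029A, 0.05 without dogs 024A, 029A and 037A, and -0.23 against all 17 B-cell dogs, with 88, 94 and 47 of 150 members positive in place of 105. With limma on log2(FPKM + 1) it was 0.08, with 89 positive. A single member's fold change had a median standard error of 0.42, so a difference of that size in 1 gene was not detectable with these dogs. The B-cell dogs also took part in the choice of members.

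Within the B-cell label, edgeR without a covariate called members between the series about as often as all genes, but only in the lower direction. In the comparison of 6 B-cell dogs of the odd series with 11 of the consecutive series, 42 of the 150 members had an adjusted p-value under 0.05 (edgeR), all 42 lower in the odd series and 0 higher. The 42 were 28% of the members. Of all 18350 genes tested 5368 were called, 14.9% lower and 14.4% higher. At an unadjusted edgeR p-value under 0.05 there were 36.7% of the members against 44.8% of all genes. Other fits called a smaller share of all genes. With survival as a covariate in edgeR, 38 members were called, all lower, and 3237 of all 20360 genes, 2130 of them lower. With limma on log2(FPKM + 1), 30 members were called, all lower, and 1526 of all 13256 genes, 1202 of them lower. The 42 members fell by between 0.61 and 2.47 on the log2 scale, with a median of -1.16. Over the 150 members the median log2 fold change was -0.68 and 138 were negative, against -0.07 and 53.6% negative over all genes. ENSCAFG00000008723 had the smallest p-value. It ran from 32.5 through 47.7 to 69.6 CPM in the consecutive series and from 21.9 through 24.8 to 29.3 CPM in the odd series. The 2 series did not overlap (log2 fold change -1.21, standard error 0.17, edgeR adjusted p = 0.000247). ENSCAFG00000002834 ran from 213 through 383 to 683 CPM in the consecutive and from 72.4 through 139 to 199 CPM in the odd series, again without overlap (log2 fold change -1.81, standard error 0.29, edgeR adjusted p = 0.000511). Of the members with the largest B-cell over T-cell difference, ENSCAFG00000002171 fell by 1.28 (standard error 0.27, edgeR adjusted p = 0.00390), while ENSCAFG00000010172 did not pass (log2 fold change -1.25, standard error 0.80, edgeR adjusted p = 0.230).

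The direction of this series difference is not independent of the rule, since most B-cell dogs are in the consecutive series and all T-cell dogs in the odd one, which favours genes that are high in the consecutive series. When the members were chosen from the 6 B-cell dogs of the odd series alone, which favours the opposite, 120 of 150 members were shared and 29 were called, 28 lower (18.7%) and 1 higher in the odd series. In the same fit 14.9% of all genes were lower and 14.4% higher, so the lower share is near the background and the higher share is under it. The median log2 fold change of these members was -0.52 and 121 of 150 were negative, against -0.07 and 53.6% negative over all genes. Without dog 038A in the rule 43 of 150 were called, all lower. Without B-cell dogs 029A and 037A in the fit, 26 of the 150 members were called, all lower in the odd series. Of all 18977 genes 2919 were called in that fit, and 10.1% of all genes were called lower. As a further description of values the rule used, from which nothing is read, the median of the odd-series B-cell dogs exceeded the T-cell median by 2.03 to 5.50 on the log2 scale, with a median of 3.40 over the members, against 3.87 for the consecutive series.

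**Figure D5:**
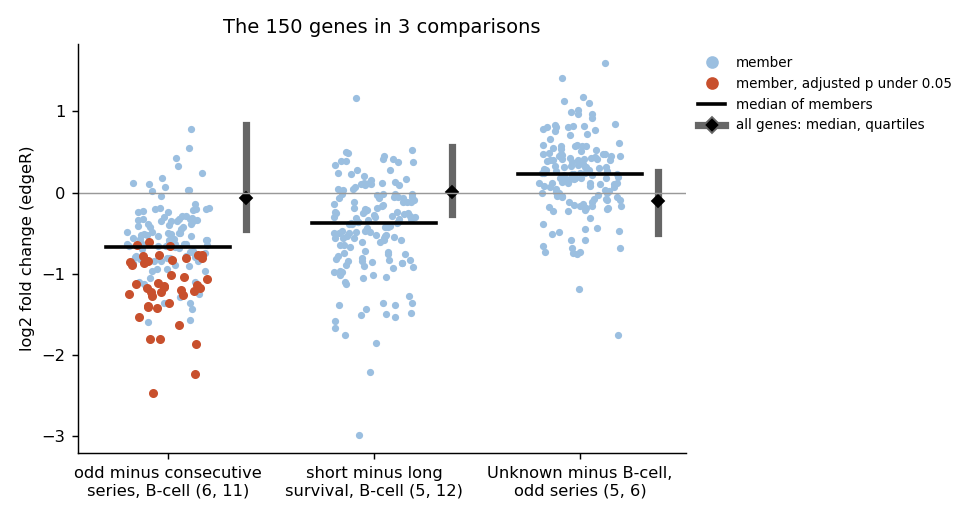
Log2 fold change (edgeR) of each of the 150 B-cell-high genes in 3 comparisons, with dogs per group in parentheses (first group minus second), members with an adjusted p-value under 0.05 in red, a line at the members' median, and beside it the median (diamond) and quartiles (grey bar) of all genes tested. The 42 red points all lie under 0 in the comparison of series, and no member passed in the other 2 comparisons.

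Survival was compared within the B-cell label, 5 dogs with short against 12 with long survival. Of the 150 members 0 passed an adjusted p-value of 0.05 with edgeR, and 1 of all 19259 genes did (0.00519%). The smallest adjusted p-value of a member was 0.402. At an unadjusted p-value under 0.05 there were 23 members (15.3%), 22 lower and 1 higher in short survival, against 8.86% of all genes. The members' median log2 fold change was -0.37 and 119 of 150 were negative, against a median of 0.01 over all genes. This direction is not independent of the rule, which used the same B-cell dogs, most of them with long survival. That favours genes that are high in long survival. With members chosen from the B-cell dogs of the odd series alone, the median was -0.27 and 107 of 150 were negative. In that set 18 members (12%) had an unadjusted edgeR p-value under 0.05. The survival classes were uneven over the series, as 3 of the 5 dogs with short survival are in the odd series. With the series as a covariate, 14 members had an unadjusted p-value under 0.05 against 4.21% of all genes, and the members' median was -0.21. The count at the unadjusted threshold depended on single dogs with short survival. Without dog 029A of the odd series it was 13 members against 5.1% of all genes, with a median of -0.17, and without dog 030A of that series 13 against 4.81%, with a median of -0.26. Without dog 009 of the consecutive series it was 43 members against 15.4% of all genes, and without dog 001 of that series 33 against 11.9%, both with a median of -0.57. DESeq2 called 5 members, all lower in short survival, where 40 of 32206 genes (0.124%) were called lower. That share is over every gene with a count, without the filter on low counts used for edgeR. All members passed that filter, so the members and the 32206 genes are not alike in level.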

How the data were processed

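RNA from lymph node aspirates of 25 dogs was sequenced as single reads. According to the submitters' processing notes and the study's methods, the authors aligned reads with HISAT2 2.1.0 to CanFam3.1 and quantified genes with StringTie 1.3.3. The deposited counts are raw whole numbers per gene, and their counting program, strand setting and treatment of shared reads are not given in the sources used here, so overlapping genes and near-identical copies are uncertain. Ballgown gave the deposited FPKM values, which the authors scaled for gene length and mapped reads. The number of per-sample columns not used was 0.

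The members and lists were chosen with earlier results of these data known. Groups, survival and sheet numbers came from the labels. CPM used column totals and a pseudocount of 1. Counts were compared with edgeR 4.0.16 (R 4.3.3) using filterByExpr, TMM, glmQLFit and glmQLFTest, and adjusted p-values are Benjamini-Hochberg over all genes tested. The standard error is the fold change divided by the square root of F. All 150 members passed each filter. DESeq2 1.42.0 and limma 3.58.1 on log2(FPKM + 1) were alternatives. Only the edgeR fit of each comparison, without covariates, was tested on simulated data with known changes. The DESeq2 and limma fits were not tested in this way. Each dog gave 1 sample, so p-values measure the spread between dogs. Depth leaves members with few reads in T-cell dogs imprecise.

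Genes were to be named by symbol from the largest differences, the smallest p-values, the extremes of SD and fixed marker lists. As 0 identifiers matched a symbol, at most 2 identifiers per direction are named, and the marker lists (B lineage, MHC class II, germinal centre, plasma cell, receptor signalling, T lineage, cytotoxic, myeloid, stromal, erythroid and proliferation) and the promoter motifs were not run. Python 3.11.15, NumPy 2.4.6 and pandas 2.3.3 were used.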

Additional observations from a re-analysis of the deposited data

Results flagged for a closer look

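In 3 groups of 5 or 6 dogs (unknown, B-cell of the odd series, B-cell with short survival), 11 measures each were examined for a dog whose gap to its nearest neighbour was large against the range of the group. Of 33 combinations 7 stood out. The rule's rate of about 1 in 20 by chance assumes independent, normally distributed values. Here the groups and measures overlap, correlations cannot exceed 1, and the genes among the measures were picked from these data. No excess over chance is therefore read from the count. Dog 029A had the fewest members nearer to the B-cell median among the B-cell dogs of the odd series and among those with short survival (112, next 136 in both). Its members also took 0.803% of its counts, the next-lowest B-cell dog of the odd series having 1.72%, and its log2(CPM + 1) of ENSCAFG00000002171 was 6.66, next 7.68. Dog 029A has the smallest total, 9592039 counts, and whether depth has a part in these values was not tested. The correlation between counts and FPKM values over the members was lowest in dog 024A of the unknown dogs (0.816, next 0.980), in dog 037A of the B-cell dogs of the odd series (0.559, next 0.981) and in dog 009 of the B-cell dogs with short survival (0.920, next 0.981).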

How the results depend on the processing

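Of the 150 members, from 89 to 147 were kept by the rule without a single T-cell or B-cell dog, with 91 without dog 028A and 89 without dog 036A. Over the 7 planned changes of scaling, unit, pseudocount, centre, series or filter, at least 119 were kept. With dog 038A as the only T-cell dog, added after seeing the data, 20 were kept. The median SD among B-cell dogs stayed between 0.71 and 0.94, and the median number of members nearer to the B-cell median in the unknown dogs between 122 and 141. In the comparison of unknown with B-cell dogs 0 members were called in all 6 other settings and in each fit without a single dog. Between survival classes 5 were called with DESeq2 and 0 in the other 5 settings. Between the series, the 42 members became 20 with the suffix letter of the dog's identifier in place of the series, where 1049 of all 17542 genes were lower, and 26 without dogs 024A, 029A and 037A, also added after seeing the data. Leaving out single dogs gave 31 to 43 members, but the background also moved. Over all genes, those fits called from 2679 of 18447, with 32 members, to 6141 of 19177, with 42 members. Genes called lower ran from 1622 of 18272, with 31 members, to 2570 of 19177, with 42 members. For the 150 members of the rule as given, 0 were higher in the odd series in each of these fits, and 1 was higher when the members were chosen from the B-cell dogs of the odd series. The causes were not tested. Over all genes the series count of 5368 was 10895 of 32206 with DESeq2 (8520 higher) and 1526 of 13256 with limma (324 higher). Of the 150 members these called 41 and 30, all lower. Against edgeR, the median fold change of shared genes moved by 0.12 with DESeq2 and 0.18 with limma for the series, and by 0.13 and -0.14 for unknown against B-cell. No paired analysis was possible because each dog gave 1 sample and the labels number no replicates.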
